A study of Mus musculus with 6 samples.

Results

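The ATP-binding cassette (ABC) family was followed in bulk RNA-seq of mouse acute myeloid leukemia cells. Members were taken as every gene of the deposited table whose symbol starts with Abc, a subfamily letter from a to g and a number. This gave 50 of the 23608 rows. Of these, 27 had enough counts to be tested and 23 did not. The ABC genes Tap1, Tap2 and Cftr carry other symbols, are not among the 50, and are given separately.

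The leukemia was made by expressing AE9a, a shortened AML1-ETO fusion, in fetal liver cells from a GFP-marked retrovirus, and was passed on to secondary recipients. All 6 libraries came from leukemia of the genotype Usp18+/f UBCER-Cre, in which 1 Usp18 allele is floxed and a tamoxifen-activated Cre is expressed from the ubiquitin C promoter, which is not limited to a cell type. Sick recipients, which were irradiated C57BL/6 mice, were injected with oil (3 libraries, oil 1, oil 3 and oil 4) or with tamoxifen in corn oil (3 libraries, tamoxifen 1, tamoxifen 2 and tamoxifen 4). Spleens were taken 3 days after the injections began and sorted for GFP+ Lin- c-Kit+ cells, and the question was what changes when 1 copy of Usp18 is removed. No group with Cre but without the floxed copy was analysed here, so an effect of tamoxifen or of Cre and an effect of the lost copy cannot be told apart.

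ABC proteins bind and hydrolyze ATP through paired nucleotide-binding domains, and most use that energy to move a substrate across a membrane. Subfamilies A and G hold many lipid and sterol exporters, B and C hold the drug and organic anion pumps together with mitochondrial and lysosomal transporters, and D holds the peroxisomal fatty acid importers. Members of E and F have no membrane part and act on ribosomes and translation. In blood-forming cells the family is known for the efflux of dyes and drugs from stem cells, for sterol export that restrains the growth of progenitors, and for the mitochondrial steps of heme synthesis.

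The libraries held 17118964 to 20741399 counts each, and the 50 members together took 0.342% to 0.366% of them. Levels are given as CPM, counts scaled to the TMM-corrected size of the library. In the knockdown check, Usp18 stood at 9.12, 10.95 and 11.2 CPM in oil 1, oil 3 and oil 4 and at 15.1, 28.0 and 19.4 CPM in tamoxifen 1, tamoxifen 2 and tamoxifen 4. The labels say that Usp18 was depleted, but its total count was not lower in any library labelled tamoxifen, and the difference (log2 fold change 0.998, SE 0.23) had an adjusted p of 0.0739 by edgeR's quasi-likelihood test, with a range from 0.00199 to 0.295 among the alternatives and a call without tamoxifen 4 (log2 fold change 1.04). A count over the whole gene does not separate the floxed from the intact copy. For this reason every direction below is that of the libraries labelled tamoxifen against the libraries labelled oil, and not that of a verified loss of Usp18. Library tamoxifen 4 stood apart from the other two of its group, with a chi-square per degree of freedom of 57.7 and 69.8 against them, compared with 18.6 between tamoxifen 1 and tamoxifen 2 and 7.40 to 10.2 among the oil libraries. Where leaving it out changed a call on a member described below, the value without it is given as well.

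Marker genes of the sorted population and of other cells were also read. Kit, the receptor used for the sort, was at 439 to 451 CPM in oil and at 447 to 782 CPM in tamoxifen, while Elane, a gene of granulocyte-monocyte progenitors, was at 0 in every library and Mpo, another, at most at 0.206 CPM. Prtn3 and Ctsg of the same granule gene set were low, at 0.309 to 0.535 and 0.929 to 1.47 CPM in oil and 0.525 to 1.004 and 2.39 to 5.64 CPM in tamoxifen, and neither was called with all 6 libraries. Ctsg was above oil in every tamoxifen library (log2 fold change 1.74, adjusted p 0.0746). Of 8 mast cell markers, all tested, Tpsb2 and Fcer1a were called higher in tamoxifen. Tpsb2 had 2, 6.5 and 5.5 counts in oil and was testable only through the tamoxifen libraries (36.5, 151 and 44 counts). Tamoxifen was above oil for 5 of the list, and for 13.3% of all tested genes. Ms4a2, Mcpt4 and Hdc overlapped between the groups, with log2 fold changes of -0.04, 0.72 and 0.58. Without tamoxifen 4, Mcpt4 and Hdc were called higher, at 0.99 and 0.78, where 19.2% of all genes were called higher. The summed level of the list was 2377 to 2644 CPM in oil and 3109 to 6849 CPM in tamoxifen. The summed level of 8 macrophage markers was 3.97 to 7.29 CPM in oil and 8.20 to 20.9 CPM in tamoxifen. Among the 6 tested, Hmox1 was called higher, with means of 1.18 CPM in oil and 6.86 CPM in tamoxifen. Vcam1 had means of 0.825 and 3.05 CPM and was not called. Csf1r, C1qa, C1qb and C1qc overlapped between the groups, and C1qb and C1qc had negative log2 fold changes of -0.17 and -0.12. Of 5 megakaryocyte markers only Itga2b was tested, and it was called higher, whereas the defining marker Pf4 was at 0 in 5 of the 6 libraries. The early progenitor gene Cd34 was called higher, with means of 9.94 CPM in oil and 96.3 CPM in tamoxifen. Its log2 fold change was 3.27 (SE 0.41, adjusted p 0.0232 by edgeR). The erythroid list summed to 1965 to 2849 CPM in oil and 1560 to 3237 CPM in tamoxifen. The B cell, T and NK cell, neutrophil and endothelial lists summed to at most 0.878, 0.103, 0.472 and 0.439 CPM, and none of their genes was tested. The part of these shifts in the results on the family was not tested. In bulk samples like these, fewer cells of a type and less RNA per cell cannot be told apart.

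Per kilobase of transcript, the family spanned from Abcb10 at 156 ± 10.3 CPM per kb to Abca5 at 0.188 ± 0.0101 CPM per kb among the 27 tested members in oil (SD, n = 3). Abcb10, a mitochondrial inner membrane transporter needed for heme synthesis, and Abce1, which splits ribosomes for recycling, were the most abundant. Together they made up 29.8% to 33.8% of the summed family CPM in each library. Next came the translation factor Abcf1 at 82.4 ± 2.77 CPM per kb, the phospholipid floppase Abcb4 at 62.1 ± 2.42 CPM per kb, Abcf2 at 52.5 ± 1.71 CPM per kb and the drug and porphyrin pump Abcg2 at 48.9 ± 3.25 CPM per kb. The oil libraries of Abcf2 and Abcg2 overlapped. In all, 11 of the 26 neighboring pairs in the order overlapped, among them the run of Abca7, Abcb6, Abcb8 and Abcc5, which spanned 21.7 to 22.6 CPM per kb. The sterol exporter Abca1 was only 21st in oil, at 4.32 ± 0.324 CPM per kb, and stood at 12.05 ± 3.94 CPM per kb in tamoxifen.

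**Figure D1:**
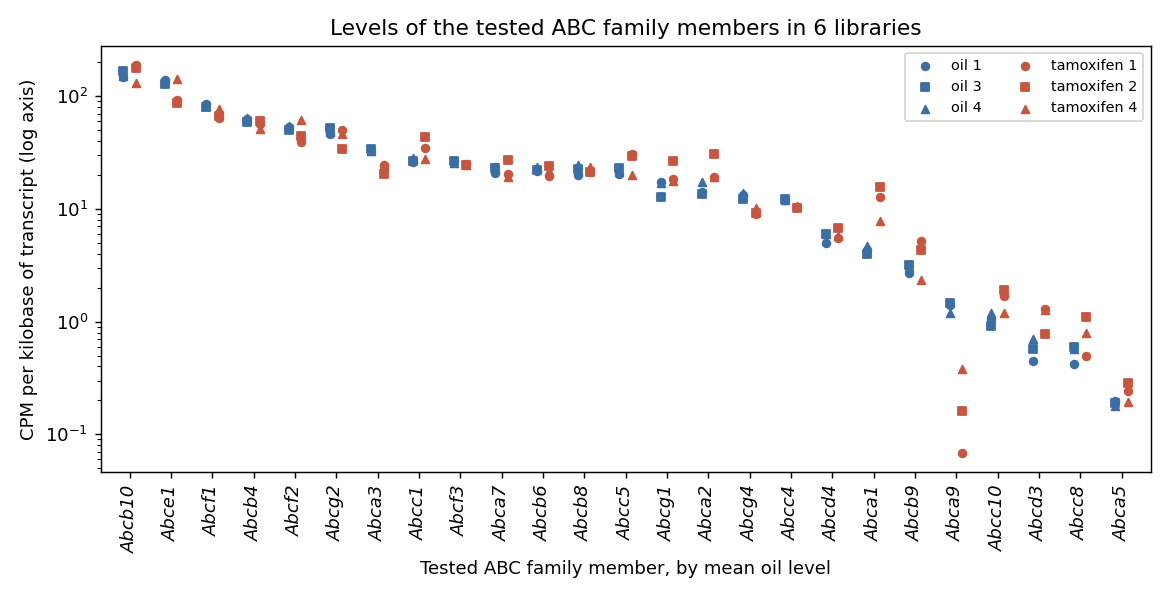
Level of the tested ABC family members reported here in the 6 libraries, as CPM per kilobase of the longest principal transcript on a log axis, with oil in blue and tamoxifen in red and members ordered by their mean in oil. The oil means run from 156 for Abcb10 to 0.188 for Abca5, and the groups stand farthest apart for Abca9 and Abca1.

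Of the 23 members that were not tested, 9 had no count in any library. These were Abca4, Abca6, Abca8a, Abca12, Abca14, Abca16, Abca17, Abcb5 and Abcb11, which include the retinal transporter Abca4, the skin lipid transporter Abca12 and the bile salt pump Abcb11. A count of 0 allows up to 3 counts, or 0.145 to 0.177 CPM depending on the library, and this floor covers counting error only. A further 12 members reached between 0.5 and 9 counts at most. The drug pumps Abcb1a and Abcb1b, the mouse genes for P-glycoprotein, were among them, with at most 1 count each, and Abcg5 and Abcg8, the sterol pumps of liver and gut, had at most 0.5 and 1 counts. Abcc3, an organic anion pump of liver and gut, had 3.5, 9 and 5 counts in oil and 4.5, 9 and 7.5 counts in tamoxifen. The other two had at least 10 counts in a library. Abca15 had 0, 2 and 0 counts in oil 1, oil 3 and oil 4 and 16, 4 and 1 counts in tamoxifen 1, tamoxifen 2 and tamoxifen 4. Abcc6 had 5, 2.5 and 3 counts in oil and 15.5, 4.5 and 0 counts in tamoxifen. For both, tamoxifen 1 was the high library and the group ranges met, so no difference was read from them.

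Across the 27 tested members, 3 passed an adjusted p under 0.05 in the fit of all 6 libraries. Abca1 was called higher in tamoxifen, where 1.75% of the 11614 tested genes were called higher, and Abca3 and Abca9 were called lower, where 0.267% of all genes were. The median log2 fold change of the members was -0.02 and that of all tested genes 0.00, with 13 members above 0 and 14 below. The libraries of the groups did not overlap for 11 members. Tamoxifen was above oil for 5 members (18.5%, against 13.3% of all genes) and below oil for 6 (22.2%, against 11.8% of all genes). The median size of the log2 difference, without its sign, was 0.32 for the members and 0.19 for all genes, and 2 members (7.41%) and 645 of all genes (5.55%) reached a size of 1.

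These 3 calls rested on the full set of libraries. Leaving out each library in turn, none of them held in 5 of the 6 fits, those without oil 1, oil 3, oil 4, tamoxifen 1 or tamoxifen 2, where the adjusted p reached 0.187 for Abca1, 0.209 for Abca3 and 0.202 for Abca9. All held in the fit without tamoxifen 4. In that fit 11851 genes were tested, 19.2% of them were called higher and 17.1% lower, and 8 members were called in each direction. All 3 members called with 6 libraries were among these 16, and 13 were called only without tamoxifen 4. An unadjusted p under 0.05 was reached by 12 of the 27 members (44.4%) and by 20.6% of all tested genes in the fit of all 6 libraries. With DESeq2 on the 6 libraries, 2 members were called higher (Abca1 and Abca2) against 6.14% of all genes, and 3 lower (Abca3, Abca9 and Abcg4) against 1.99%.

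**Figure D2:**
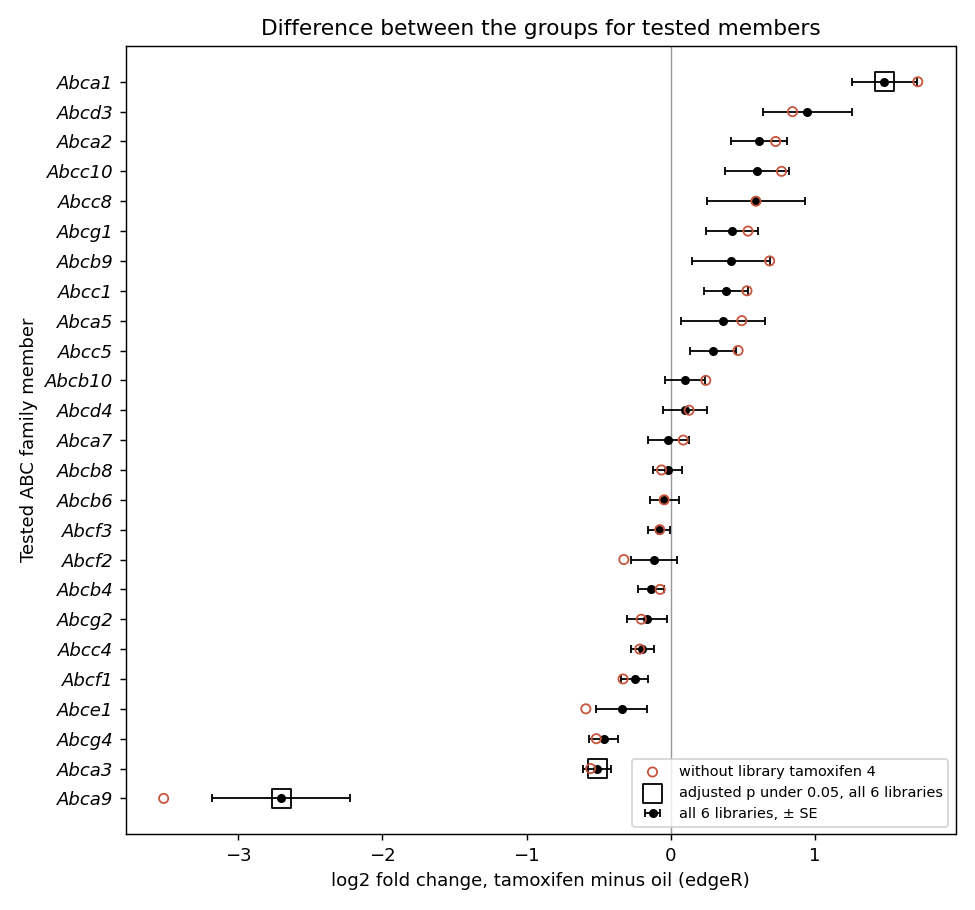
Log2 fold change of the tested members reported here, tamoxifen minus oil, from edgeR with all 6 libraries (black points, bars are the SE), with squares around members at an adjusted p under 0.05 and open red circles for the fit without library tamoxifen 4. Abca1 at 1.48 and Abca9 at -2.70 stand apart from the other members, which lie between -0.51 and 0.94.

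The 5 tested sterol and phospholipid exporters had log2 fold changes of both signs, and 1 of them was called. Abca1 loads cholesterol and phospholipid onto lipid-poor apolipoprotein A-I and is a textbook target of the oxysterol-sensing liver X receptors. It measured 44.5, 41.0 and 47.6 CPM in oil 1, oil 3 and oil 4 and 129.7, 161 and 80.5 CPM in tamoxifen 1, tamoxifen 2 and tamoxifen 4. All the tamoxifen libraries were above all the oil libraries, and tamoxifen 4 was the lowest of its group. The level was 2.79 times that of oil (log2 fold change 1.48, SE 0.23, adjusted p 0.0325). Without tamoxifen 4 the log2 fold change was 1.71. The adjusted p ran from 4.47e-08 with DESeq2 to 0.187 among the alternatives, and it also missed the threshold with limma-voom.

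Abcg1, which passes cholesterol to mature high-density lipoprotein and often responds together with Abca1, measured 101, 74.4 and 98.4 CPM in oil and 108, 156 and 103 CPM in tamoxifen. The groups did not overlap, but oil 1 and tamoxifen 4 were close. The log2 fold change of 0.42 (SE 0.18) had an adjusted p of 0.238 and was 0.53, with a call, without tamoxifen 4. Its near relative Abcg4, also a sterol exporter, lay the other way, at 53.3, 48.5 and 55.3 CPM in oil and 36.4, 36.7 and 40.5 CPM in tamoxifen. Here tamoxifen 4 sat with its group. The log2 fold change of -0.47 (SE 0.10) had an adjusted p of 0.0577, just outside the threshold, and Abcg4 was called lower with DESeq2, without the filter on low counts and without tamoxifen 4 (-0.52). Abcb4, which flips phosphatidylcholine into bile in the liver and was the most abundant exporter of this group per kilobase, measured 255, 243 and 262 CPM in oil and 233, 247 and 209.9 CPM in tamoxifen. Tamoxifen 2 lay within the oil range and the other two below it, and the log2 fold change was -0.14 (SE 0.09, adjusted p 0.397). The phospholipid exporter Abca7 had a log2 fold change of -0.02 (SE 0.14).

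Since the 2 members with the largest differences, Abca1 and Abca9, lay in opposite directions, the sequence before each gene's start is shown for reading beside the values. The window is the 250 bases before the start in RefSeq (GRCm38.p6), both genes lie on the minus strand, and sequences are written 5′ to 3′. Capitals mark matches on either strand to any of 5 short motifs. They are the GC box with the letters GGGCGG, the CCAAT box, the TATA box searched as TATAAA, the E box searched as CACGTG, and the hexamer AGGTCA, which many nuclear receptors bind. No match overlaps another. The window of Abca9 reached 43 bases into the gene as GENCODE draws it, so the 207 bases outside it are printed. They are Abca1 at chr4:53159896-53160145 and Abca9 at chr11:110168197-110168403.
Abca1: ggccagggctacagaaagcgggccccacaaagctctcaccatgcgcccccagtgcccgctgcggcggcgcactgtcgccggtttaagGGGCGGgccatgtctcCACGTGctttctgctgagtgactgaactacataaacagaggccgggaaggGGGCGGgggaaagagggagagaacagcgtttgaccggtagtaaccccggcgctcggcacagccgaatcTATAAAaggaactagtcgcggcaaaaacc
Abca9: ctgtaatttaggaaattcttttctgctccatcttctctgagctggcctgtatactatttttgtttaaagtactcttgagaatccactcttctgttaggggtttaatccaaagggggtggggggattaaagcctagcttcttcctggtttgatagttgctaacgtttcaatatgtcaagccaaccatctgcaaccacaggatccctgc
The 250 bases of Abca1 were 61.6% G or C with 20 CG dinucleotides, and held 2 GC boxes, 1 E box and 1 TATA box. Those of Abca9 were 44.4% G or C with 2 CG dinucleotides and held none of the 5 motifs. Over 32851 windows of this length, the GC box occurred in 32.7%, the CCAAT box in 33.9%, the TATA box in 12.4%, the E box in 6.02% and the receptor hexamer in 14.0%. These are matches of exact letters, so receptor sites that vary from AGGTCA were not searched for in either window. The binding of a factor was not measured.

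Among the other lipid transporters of subfamily A, Abca9 showed the largest difference of any tested member. Abca9 belongs to the group of genes related to Abca6, is found in macrophages among other cells, and has no settled substrate. It measured 8.92, 9.26 and 7.56 CPM in oil 1, oil 3 and oil 4 and 0.439, 1.03 and 2.40 CPM in tamoxifen 1, tamoxifen 2 and tamoxifen 4, which were 158.5, 191 and 147 counts against 8, 17.5 and 43.5 counts. Every tamoxifen library was below every oil library, with tamoxifen 4 the nearest to oil. The level in oil was 6.50 times that in tamoxifen (log2 fold change -2.70, SE 0.48, adjusted p 0.0399). Without tamoxifen 4 the log2 fold change was -3.52. It stayed called under the 8 alternatives that kept every library, and the adjusted p over all alternatives ran from 1.20e-06 to 0.202.

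Abca9 (chr11:110100749-110168196, minus strand) lies in a row of 5 members on chromosome 11 in GRCm38, in the order Abca8b, Abca8a, Abca9, Abca6 and Abca5. Its direct neighbors Abca8a and Abca6 had no count in any library. Abca8b had 0 counts in all the oil libraries and 5, 4.5 and 0.5 counts in tamoxifen 1, tamoxifen 2 and tamoxifen 4. Abca5, a lysosomal lipid transporter at the end of the row, measured 1.63, 1.55 and 1.47 CPM in oil and 1.98, 2.36 and 1.602 CPM in tamoxifen, with a log2 fold change of 0.36 (SE 0.29, adjusted p 0.485). Of the row, then, Abca9 was the only member called, and the others were either at or near 0 counts or not past the test.

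Abca3, which carries phospholipid into the lamellar bodies of lung type II cells, was the most abundant of this group per kilobase. It measured 211, 219 and 209.98 CPM in oil and 158, 132 and 159 CPM in tamoxifen. The oil libraries lay close together and the groups did not overlap. The log2 fold change was -0.51 (SE 0.10, adjusted p 0.0434), and the adjusted p ran from 0.000258 to 0.349 among the alternatives. Without tamoxifen 4 the log2 fold change was -0.56. The call was also lost with limma-voom and with a minimum mean of 50 counts. Abca3 (chr17:24351950-24410201, plus strand) overlaps D330041H03Rik on the other strand. That gene measured 24.0, 26.1 and 25.4 CPM in oil and 19.8, 15.5 and 16.8 CPM in tamoxifen, with a log2 fold change of -0.54 (SE 0.13, adjusted p 0.0827). The strand setting of the counting is not given in the sources used here, so reads of the pair cannot be told apart. Abca2, a transporter of endosomes and lysosomes that is abundant in brain, lay the other way. It measured 114, 109 and 139 CPM in oil and 154, 246 and 153 CPM in tamoxifen, and the log2 fold change of 0.61 (SE 0.19) had an adjusted p of 0.153. The groups did not overlap, with tamoxifen 2 far above the other two of its group, and the log2 fold change without that library was 0.35. Without tamoxifen 4 it was 0.73, with a call.

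**Figure D3:**
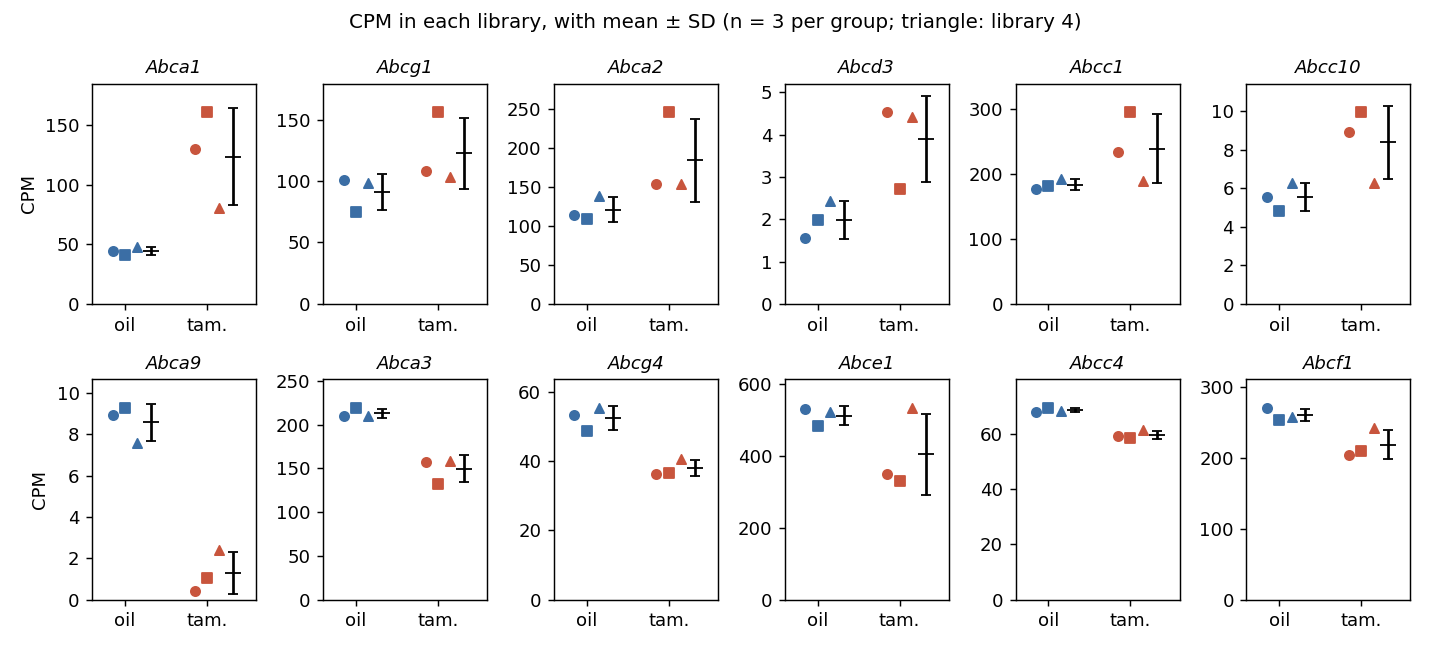
CPM of selected tested members in each library, with the mean and SD of each group beside the points (n = 3 per group; circle, square and triangle are libraries 1, 3 and 4 of oil and 1, 2 and 4 of tamoxifen). The triangle of tamoxifen 4 lies within the oil range for Abcc1, just above it for Abce1, and beyond all of them, on the side of its group, for Abca1, Abca9, Abca3 and Abcg4.

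Of the 10 drug and organic anion pumps, 5 were tested and 0 were called with all 6 libraries by edgeR or by DESeq2. By edgeR, 3 had an unadjusted p under 0.05, which 20.6% of all tested genes reached. Abcc1, which exports glutathione conjugates and leukotriene C4, measured 177, 181 and 193 CPM in oil and 234, 295 and 189 CPM in tamoxifen. Tamoxifen 1 and tamoxifen 2 were above all the oil libraries and tamoxifen 4 was among them. The log2 fold change was 0.38 (SE 0.15, adjusted p 0.221), and it was 0.53, with a call, without tamoxifen 4. Abcc10, a related pump of lipophilic drugs, measured 5.54, 4.82 and 6.28 CPM in oil and 8.945, 9.95 and 6.30 CPM in tamoxifen, so that oil 4 and tamoxifen 4 nearly touched (log2 fold change 0.60, SE 0.22, adjusted p 0.204). The cyclic nucleotide exporter Abcc5 had a log2 fold change of 0.29 (SE 0.16, adjusted p 0.318), and both it and Abcc10 were called higher without tamoxifen 4, at 0.47 and 0.77.

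Abcc4, which exports cyclic nucleotides and prostaglandins, showed the opposite sign with little spread. It measured 67.9, 69.3 and 68.2 CPM in oil and 59.4, 58.5 and 61.2 CPM in tamoxifen. The groups did not overlap and tamoxifen 4 sat with its group, but the difference was small, with a log2 fold change of -0.20 (SE 0.08, adjusted p 0.217), and it was -0.22, with a call, without tamoxifen 4. Abcg2, the pump behind the side population of stem cells, measured 266, 301 and 273 CPM in oil and 288, 196 and 264 CPM in tamoxifen. Tamoxifen 1 lay within the oil range, tamoxifen 4 just below it and tamoxifen 2 far below it, and the log2 fold change was -0.17 (SE 0.14, adjusted p 0.507). On chromosome 5, Abcb1a and Abcb1b lie directly beside Abcb4. The pair had at most 1 count in any library while Abcb4 was at 209.9 to 262 CPM. Some reads of the related Abcb1a and Abcb1b may be split between them, which at these counts changes nothing in their order.

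No mitochondrial member was called with all 6 libraries by edgeR or DESeq2. Abcb10 measured 636, 720.1 and 652 CPM in oil and 809.96, 773 and 569.7 CPM in tamoxifen, with tamoxifen 1 and tamoxifen 2 above and tamoxifen 4 below every oil library. Its log2 fold change was 0.10 (SE 0.14, adjusted p 0.693), and 0.24, with a call, without tamoxifen 4. Abcb6, a porphyrin transporter, and Abcb8, a part of the mitochondrial potassium channel, had log2 fold changes of -0.05 and -0.02 (SE 0.10 each).

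The 4 members without a membrane part all had negative log2 fold changes, and 0 of them were called by edgeR or DESeq2. By edgeR, 1 had an unadjusted p under 0.05, which 20.6% of all tested genes reached. Abce1 measured 532, 483 and 524 CPM in oil and 349.7, 332 and 534 CPM in tamoxifen. Tamoxifen 4 was just above every oil library, while tamoxifen 1 and tamoxifen 2 were far below them. The log2 fold change was -0.34 (SE 0.18, adjusted p 0.305) with all libraries and -0.59, with a call, without tamoxifen 4. Abcf1, which binds the initiation factor eIF2 and ribosomes, measured 270.1, 253 and 258 CPM in oil and 204, 209.8 and 243 CPM in tamoxifen. Its groups did not overlap (log2 fold change -0.25, SE 0.09, adjusted p 0.202), and without tamoxifen 4 it was -0.33, with a call. Abcf2, a cytosolic member of the same subfamily, had -0.12 (SE 0.16) with all libraries and -0.33, with a call, without tamoxifen 4, where it measured 158 CPM against 101 and 114 CPM in tamoxifen 1 and tamoxifen 2. Abcf3, a relative of the yeast GCN2 activator GCN20, differed least, at -0.08 (SE 0.08), although its groups did not overlap (79.7 to 82.2 CPM in oil and 75.7 to 78.0 CPM in tamoxifen).

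The peroxisomal, lysosomal and channel-regulating members were mostly low. Abcd3, which brings branched-chain and bile acid precursors into peroxisomes, measured 1.55, 1.99 and 2.44 CPM in oil and 4.53, 2.72 and 4.42 CPM in tamoxifen. The groups did not overlap, tamoxifen 4 was among the high libraries, and the log2 fold change of 0.94 (SE 0.31) had an adjusted p of 0.159. Abcd3 was the only one of the 5 largest positive differences, beside Abcc8, that was not called without tamoxifen 4. Abcd4, the lysosomal cobalamin transporter, measured 11.4, 13.9 and 13.7 CPM in oil and 12.8, 15.6 and 13.4 CPM in tamoxifen (0.10, SE 0.15, adjusted p 0.720), with overlap between the groups. The lysosomal peptide transporter Abcb9 had a log2 fold change of 0.42 (SE 0.27, adjusted p 0.394), and 0.68, with a call, without tamoxifen 4. Abcc8, the regulatory subunit of ATP-sensitive potassium channels, measured 2.05, 2.88 and 2.80 CPM in oil and 2.41, 5.37 and 3.87 CPM in tamoxifen (0.59, SE 0.34, adjusted p 0.342). Both genes for the channel pore, Kcnj8 and Kcnj11, had no count in any library.

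The spread of the members within a group differed between the groups. The median coefficient of variation over the 27 tested members was 6.64% in oil and 19.2% in tamoxifen, and 24 members (88.9%) varied more in tamoxifen. Over all tested genes the medians were 7.11% and 14.4%, and 76.4% varied more in tamoxifen. For 11 members the mean of tamoxifen 1 and tamoxifen 2 differed from oil by at least 0.5 on the log2 scale. Tamoxifen 4 lay on the same side of oil as these libraries for 9 of the 11 and closer to the oil mean than to theirs for 5, and its median position was 50.5% of the way from oil. For the 2664 genes past the same limit among all genes, it lay on the same side for 1831, closer to oil for 2029, and at a median of 18.3% of the way. The 2 members on the other side were Abce1 and Abcb9.

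The ABC genes outside the symbol rule were read in the same fit. Tap1, which carries peptides into the endoplasmic reticulum for loading on MHC class I, measured 97.7, 103 and 101 CPM in oil and 113, 143 and 113 CPM in tamoxifen. Its groups did not overlap (log2 fold change 0.29, SE 0.11, adjusted p 0.213), and without tamoxifen 4 it was 0.34, with a call. Its partner Tap2 had 0.18 (SE 0.10, adjusted p 0.339). The chloride channel gene Cftr was below the filter with all 6 libraries and had 0, 4 and 1 counts in oil and 39.5, 12 and 7 counts in tamoxifen, so that the groups did not overlap. Without tamoxifen 4 it passed the filter, but only through the tamoxifen libraries in which it was high. Its call as higher in that fit is therefore not read as support for a difference.

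Genes of the pathways in which the members work were read next, from 8 lists, of which that of potassium channel subunits had no tested gene. Of 76 listed genes, 67 were tested and 0 were called by edgeR with all 6 libraries, while 18 had an unadjusted p under 0.05, a threshold that 20.6% of all genes passed. DESeq2 called 4 of the 67, where it called 6.14% of all genes higher and 1.99% lower. The 4 are named here after their values were seen. These were the sterol esterifying enzyme Soat1 and the lipoprotein component Apoe, both higher, and the heme synthesis enzyme Cpox and the liver X receptor gene Nr1h2, both lower. Beside Abca1, the 13 tested genes of sterol handling were split, with 10 positive and 3 negative log2 fold changes and a median of 0.07. Nr1h3, the gene of the other liver X receptor, was at most at 0.799 CPM and was not tested. Soat1 measured 4.47, 3.68 and 5.87 CPM in oil and 7.02, 13.0 and 11.3 CPM in tamoxifen, with a log2 fold change of 1.16 (SE 0.28, adjusted p 0.0827). Beside Abce1, 8 of the 10 tested genes of ribosome rescue and GCN2 signaling had negative log2 fold changes, and 0 had an unadjusted p under 0.05. Without tamoxifen 4, 7 of these 10 were called lower and 1 higher, where 17.1% of all genes were called lower and 19.2% higher. In the same fit the sterol and the peptide loading lists each had 4 genes called higher and 3 lower, of 13 and 9 tested. The peroxisomal list had 3 higher and 0 lower of 10, the heme and the glutathione lists 2 higher and 2 lower each, of 11 and 9, and the cobalamin list 2 higher and 0 lower of 5.

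**Figure D4:**
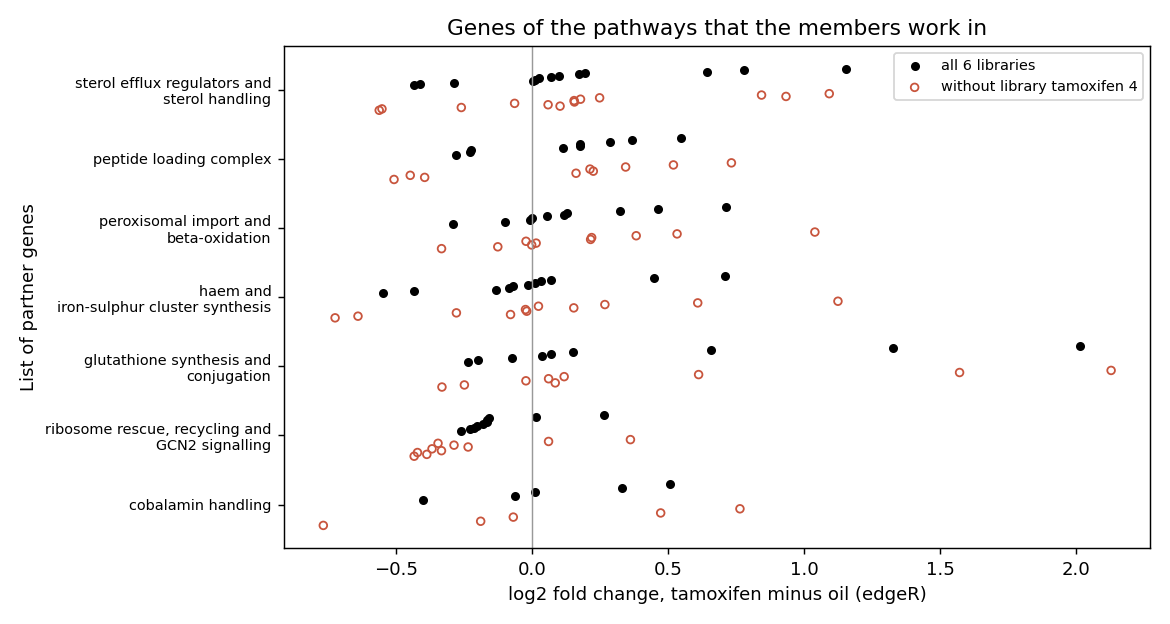
Log2 fold change, tamoxifen minus oil, of each tested gene of the 7 lists of pathway partners, with all 6 libraries (black) and without library tamoxifen 4 (open red). The points of the ribosome list sit mostly below 0, with a median of -0.17 with all libraries and -0.34 without tamoxifen 4, and those of the other lists lie on both sides of 0.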

How the data were processed

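RNA-seq libraries of 6 recipients, 3 per group, were analysed. The authors deposited one table of estimated counts per gene symbol, not scaled between libraries, made with STAR and DESeq2 after alignment to mm10 per the submitters' processing notes. Versions, the counting program, its strand setting and the annotation are not given in the sources used here. The smallest step was 0.5 counts. In 26 rows the symbol had become a date, and these stayed in the totals unnamed. The titles number oil 1, 2 and 4 and tamoxifen 1, 3 and 4, whereas the columns number oil 1, 3 and 4 and tamoxifen 1, 2 and 4. Libraries are named by the columns.

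Counts were rounded and tested in R 4.3.3 with edgeR 4.0.16 (filterByExpr by group, TMM, quasi-likelihood F test, no block), with Benjamini-Hochberg adjustment over the 11614 genes tested. Genes with an adjusted p under 0.05 were called. CPM used the unrounded counts over the TMM-scaled total of tested genes. Levels between genes were divided by the longest principal transcript of GENCODE M21 (GRCm38). Promoter windows came from RefSeq, where 38 of the 50 members matched, so no summary over the members was made. Reads carried no molecular identifiers, so counting floors cover counting error only. Alternatives were DESeq2 size factors, upper-quartile scaling, the DESeq2 1.42.0 Wald test, limma-voom (limma 3.58.1), no low-count filter, a mean of at least 50 counts, unrounded counts, a replicate block and each library left out. No 2 libraries of the same group agreed within sampling noise, and pairs across the groups were not compared. P-values measure the spread between these recipients, all of 1 leukemia model.

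The members and lists were chosen with earlier results of these data known. Members with values per library are those with an adjusted p under 0.05, the 5 largest differences in each direction, the most abundant per transcript length in each role group, Abca1, Abcg1, Abcb1a, Abcb1b, Abcc1, Abcc4, Abcg2 and Abca9, and untested members with at least 10 counts in a library. Usp18, Tap1, Tap2, Cftr and partner genes with an adjusted p under 0.05 were also named. Other genes given by library were named after their values were seen. Of the members, 42 fell into 8 role groups. Some items are not reported here.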

Additional observations from a re-analysis of the deposited data

How the results depend on the processing

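Over the alternatives that kept every library, Abca9 was called in all 8, Abca1 in 7 and Abca3 in 5. The number of members called higher was 2 with DESeq2 and 0 with limma-voom (11 members at an unadjusted p under 0.05), against 1, and the number called lower was 1 with limma-voom, with a mean of at least 50 counts and with the replicate block, against 2. Leaving out 1 library gave 0 to 8 in each direction, with 5 to 17 members at an unadjusted p under 0.05. Over all genes, 713, 48, 372 and 121 were higher and 231, 6, 61 and 17 lower with DESeq2, limma-voom, no filter and a mean of at least 50 counts, and leaving out 1 library gave 8 to 2278 higher and 0 to 2024 lower (1373 to 5501 genes at an unadjusted p under 0.05). DESeq2 called 4 partner genes, no filter called 1 (Soat1), and leaving out 1 library gave 0 to 35. Usp18 had a log2 fold change of 0.9997 with DESeq2 and 0.99 without the filter, both with a call, and 0.73 to 1.18 when 1 library was left out. The sign turned for members near 0. Abcb8 was 0.010 and Abcg2 0.034 with the replicate block, and leaving out 1 library gave -0.19 to 0.086 for Abca7, -0.12 to 0.024 for Abcb6, -0.10 to 0.047 for Abcb8 and -0.33 to 0.012 for Abcf2. The cause of these changes was not tested. The replicate block had little ground, since libraries 1 and 4 of the groups did not deviate together (correlations of -0.16 and 0.09), and it gave 215 genes higher and 26 lower, with Abca3 at -0.41 and not called. Abca5 had no value with a mean of at least 50 counts. The members under 10 counts in every library were not tested with all 6 libraries, and differences between their groups were not read.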
